A study of Canis lupus familiaris with 2 samples.

Results

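Proteasome genes were taken as every row of the deposited expression files whose symbol consists of PSMA, PSMB, PSMC, PSMD, PSME, PSMF or PSMG followed only by digits, which gave 46 genes of the 23510 features. The cells were MDCK, an established epithelial line from dog kidney that forms columnar sheets on a membrane. One group was a culture under 2-cm-high medium and the other a culture under 50-cm-high medium, a static water pressure of 2 and 50 cm H2O, and they are given below as the values at 2 cm and at 50 cm. In both groups 40000 cells were plated on an insert in EMEM with 10% serum, and RNA was taken on day 3. Each group was 1 culture sequenced once, so no value below has a replicate, no difference could be set against replicate error, and no test was run. MDCK is a single immortalised line, and the pressure was applied from the upper chamber only. The study asked how a modest static pressure alters gene expression in cells whose growth it slows, and the proteasome bears on how such cells remove proteins.

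The proteasome is the cell's main machine for degrading proteins tagged with ubiquitin. Its core particle, 20S, is a barrel in which rings of alpha subunits enclose rings of beta subunits that carry the protease sites. The regulatory cap, 19S, binds ubiquitin chains through its base and lid, removes the chains, and unfolds the substrate with a ring of ATPases. Alternative activators (PSME genes) open the same barrel without ATP-driven unfolding of ubiquitinated substrates, and chaperones (PSMG genes, PSMD5, PSMD9, PSMD10) help to build the particle. In immune signalling, 3 beta subunits are exchanged for inducible ones (PSMB8, PSMB9, PSMB10), which together with PSME1 and PSME2 favour peptides suited to presentation on MHC class I.

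Of the 46 genes, 43 exceeded 1 FPKM in both cultures. FPKM is the number of fragments on a gene per kilobase of exon and scaled to the number of mapped fragments, so that levels can be compared between genes per length. The other 3 were PSMA8, the testis-specific alpha subunit, PSMB8, and PSMB11, the thymus-specific beta subunit. PSMA4 and PSMG1 were not analysed here, so the alpha ring and the core chaperones are described without them. PSMC3IP, a meiotic recombination factor whose symbol begins in the same way, was not counted. The files gave no read counts, and the depth of the libraries is unknown. Among features below 0.1 FPKM, the commonest ratio between the cultures was 1.0977 (219 of 574 features), the step that 1 read in each culture would give. The epithelial identity of the cultures was checked on 9 markers, of which 8, among them KRT8, KRT18, CDH1 and EPCAM, exceeded 1 FPKM in both cultures. The exception was CDH16, at 1.96 FPKM at 2 cm and 0.676 FPKM at 50 cm, and CLDN2 was at 35.5 and 17.2 FPKM (ratio 0.485). Because whole cultures were sequenced, fewer cells expressing a gene and less RNA per cell cannot be told apart.

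The proteasome was highly expressed and differed little between the cultures, with the exception of a few genes. Together the 46 genes took 0.984% of the summed FPKM at 2 cm and 0.987% at 50 cm. Among features above 0 FPKM, 32 of the 46 ranked in the top 10% in the 2-cm culture and 31 in the 50-cm culture. Median FPKM over the 43 genes was 109 at 2 cm and 115 at 50 cm, against 16.2 and 16.3 over the 11057 features above 1 FPKM in both. The ratio of 50-cm over 2-cm FPKM lay within 1.2-fold of 1 for 38 of the 43 genes (88.4%), compared with 68.1% of all features tested. Since highly expressed features varied less, the same was counted above 50 FPKM in both cultures, where 31 of 33 proteasome genes (93.9%) and 80.7% of 1946 features lay within 1.2-fold. PSMB9 was the only one of the 43 that passed 2-fold (2.33%, with a background of 1.67% of all features). It was lower at 50 cm. A ratio over 1.2 was seen for 3 genes, PSMD7, PSMD5 and PSMG3 (6.98%, background 15.0%). A ratio under 1/1.2 was seen for PSMB9 and PSME2 (4.65%, background 16.9%).

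**Figure D1:**
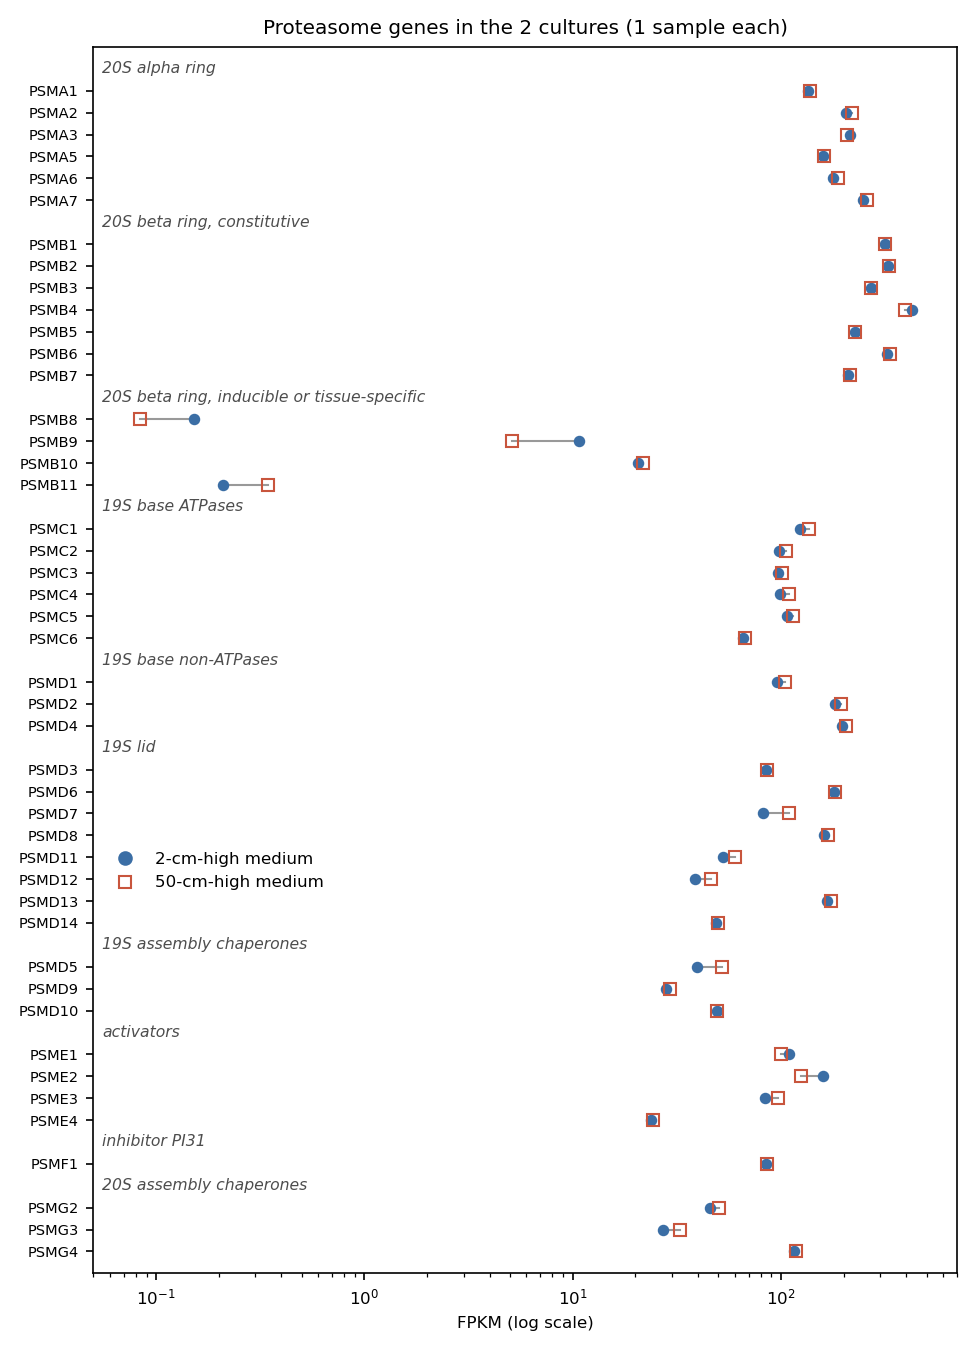
FPKM on a log axis for the 45 proteasome genes above 0 FPKM, by part of the particle, at a medium height of 2 cm (filled circles) and 50 cm (open squares), 1 culture each. Most pairs of symbols overlap, whereas PSMB9 moves from 10.7 to 5.12 FPKM and the constitutive core subunits lie between 135 and 424 FPKM at 2 cm.

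Although small, the differences mostly had 1 direction in the deposited values. FPKM was higher at 50 cm for 36 of 43 genes (83.7%), with a background of 52.6%, and the median log2 ratio was 0.06 against 0.01 over all features tested. This direction depended on the scaling of the libraries. Features above 50 FPKM were as a whole shifted upward, with a median log2 ratio of 0.06 and 65.7% of them higher. Of the 33 proteasome genes at that level 81.8% were higher, but their median log2 ratio, 0.04, was below that of these features. With upper quartile scaling 23 of 43 genes (53.5%) were higher at 50 cm, and with quantile normalization 17 (39.5%), where the median log2 ratio was -0.01. A general rise of the proteasome could therefore not be read from these files. The sizes of PSMB9, PSME2, PSMD7 and PSMD5, given below, kept their direction under both scalings.

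**Figure D2:**
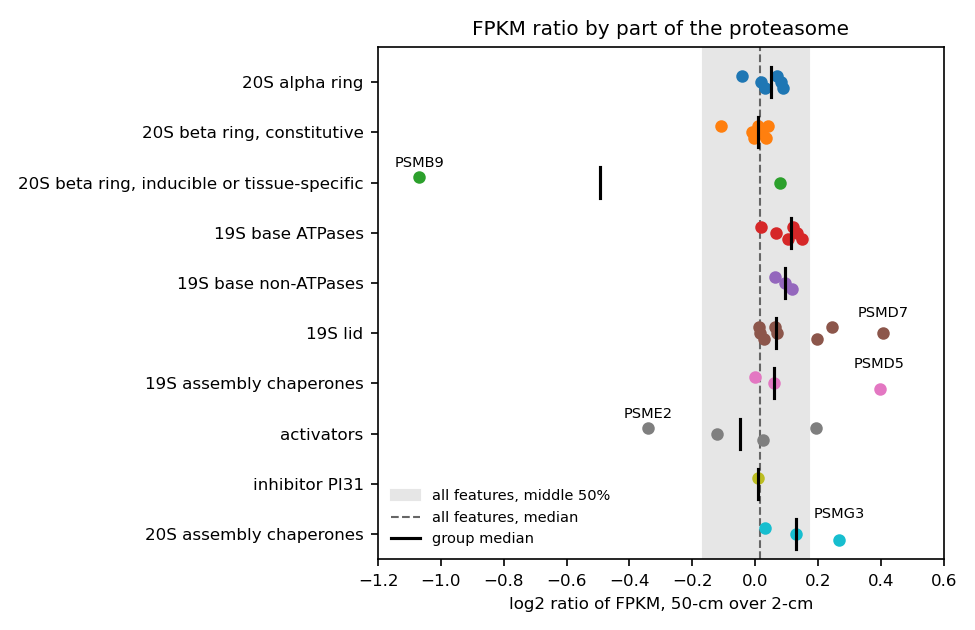
Log2 ratio of 50-cm over 2-cm FPKM for the 43 genes above 1 FPKM in both cultures, by part of the proteasome. Black ticks are group medians, the grey band holds the middle 50% of all 11057 features (-0.17 to 0.17) and the 5 named genes are those past 1.2-fold.

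The alpha ring of the core, which forms the gate of the barrel, was represented by 6 expressed genes. PSMA7 was the highest, at 247 FPKM at 2 cm and 259 FPKM at 50 cm. PSMA1 was the lowest, at 135 and 137 FPKM, respectively, so the ring spanned 1.83-fold in one culture and 1.89-fold in the other. All 6 thus lay within a narrow range of levels per length in both cultures. The largest ratio was that of PSMA2 (205.3 and 218 FPKM, ratio 1.06), and the smallest that of PSMA3 (214 and 208 FPKM, ratio 0.971). PSMA5 and PSMA6 had ratios of 1.01 and 1.06. PSMA8 was listed at 0 FPKM in both cultures.

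The constitutive beta ring, PSMB1 to PSMB7, held the highest levels of all the members, with a median of 315 FPKM at 2 cm and 317 FPKM at 50 cm. PSMB4, a structural subunit, led in both, at 424 and 394 FPKM, and had the smallest ratio of the ring (0.928). Of the other structural subunits, PSMB2 was at 325 and 330 FPKM, PSMB1 at 315 and 317 FPKM, and PSMB3 at 271 FPKM in each. The catalytic subunits were PSMB6, with caspase-like activity (323 and 333 FPKM), PSMB5, with chymotrypsin-like activity (228 and 226 FPKM), and PSMB7, with trypsin-like activity (209 and 214 FPKM). Ratios of the catalytic subunits therefore ran from 0.992 for PSMB5 to 1.03 for PSMB6, the largest ratio in the ring. The median log2 ratio of the ring was 0.01, the same to 2 decimals as that of all features.

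The 19S cap had 17 genes among the members, all of which were higher at 50 cm in the deposited values. The background was 52.6% of all features and 65.7% of those above 50 FPKM. Cap subunits without a PSM symbol were not in this count. Of these, ADRM1 had a ratio of 1.07 and SHFM1 one of 0.9998. The median ratio of the 17 genes was 1.07, compared with 1.01 for the 13 expressed core subunits outside the inducible group. The number higher was 16 when the log2 ratios were recentred on the median of all features, 13 with upper quartile scaling and 9 with quantile normalization. The gap between the medians of cap and core was 0.07 on the log2 scale with the deposited values. Upper quartile scaling and recentring shift all log2 ratios equally, so they could not alter this gap. Quantile normalization could, and with it the gap was 0.05. The median of the cap thus lay above that of the core with the deposited values and with quantile normalization, although the ranges of the 2 sets overlapped.

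Among the ATPases of the base, which pull the substrate into the core, the median FPKM was 98.3 at 2 cm and 108 at 50 cm. PSMC1 was the highest (124 and 136 FPKM) and PSMC6 the lowest (66.0 and 66.9 FPKM). PSMC4 had the largest ratio, from 99.0 to 110 FPKM (ratio 1.11), and PSMC6 the smallest (1.01). PSMC2, PSMC3 and PSMC5 lay between, with ratios of 1.09, 1.05 and 1.07, and the order of the 6 levels was identical in the cultures. The non-ATPase genes of the base encode the scaffolds PSMD1 (96.0 and 104 FPKM) and PSMD2 (182 and 194 FPKM) and the ubiquitin receptor PSMD4 (197 and 206 FPKM). Their ratios were 1.08, 1.07 and 1.04.

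Lid genes were less even. PSMD7, which encodes the partner of the deubiquitinase PSMD14, was at 82.3 FPKM at 2 cm and 109 FPKM at 50 cm (ratio 1.33, log2 ratio 0.41), the largest ratio among the 43 genes above 1 FPKM in both cultures. Its 500 neighbours in expression, the features closest by mean log2 FPKM, included 27 with a larger ratio. Such counts are given for the members past 1.2-fold, which were picked by ratio, so a place near the end follows in part. PSMD14 itself, the protease that cuts the ubiquitin chain off the substrate, was at 48.8 and 49.7 FPKM (ratio 1.02), so the genes of this pair did not have like ratios. The scaffold subunits PSMD12 (38.7 and 45.9 FPKM, ratio 1.19) and PSMD11 (52.5 and 60.2 FPKM, ratio 1.15) came next. Among the 8 lid genes with a PSM symbol, PSMD12 was the lowest in both cultures, and PSMD6 the highest, at 180 and 182 FPKM. PSMD3, PSMD6, PSMD8 and PSMD13 had ratios of 1.01, 1.01, 1.05 and 1.04. PSMD7 moved from the fifth to the fourth place in the order of the 8 levels and passed PSMD3 (84.9 and 85.6 FPKM). Per length, the highest of these 8 genes exceeded the lowest 4.64-fold at 2 cm and 3.96-fold at 50 cm, a wider span than in either ring of the core. The lid subunit SHFM1, which has no PSM symbol, was not counted here and was higher than all 8, at 788 and 787 FPKM.

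PSMD5, a chaperone of base assembly, which holds an ATPase module until the base is complete, was at 39.4 FPKM at 2 cm and 51.9 FPKM at 50 cm (ratio 1.32), and 42 of its 500 neighbours in expression had a larger ratio. PSMD10, also known as gankyrin, was at 49.1 FPKM in both cultures, and PSMD9 was at 28.0 and 29.2 FPKM (ratio 1.04). Ratios of the core chaperones ran from 1.02 to 1.204. PSMG3, which acts with PSMG4 on the alpha ring, was at 27.2 and 32.8 FPKM (ratio 1.204), close to the 1.2-fold limit, and with upper quartile scaling its ratio was 1.17. Of its 500 neighbours in expression, 94 had a larger ratio. PSMG4 was at 116 and 118 FPKM (ratio 1.02), and PSMG2, the partner of PSMG1, at 45.8 and 50.2 FPKM (ratio 1.095). POMP, the maturation factor of the beta ring, was at 82.6 and 81.9 FPKM (ratio 0.992).

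**Figure D3:**
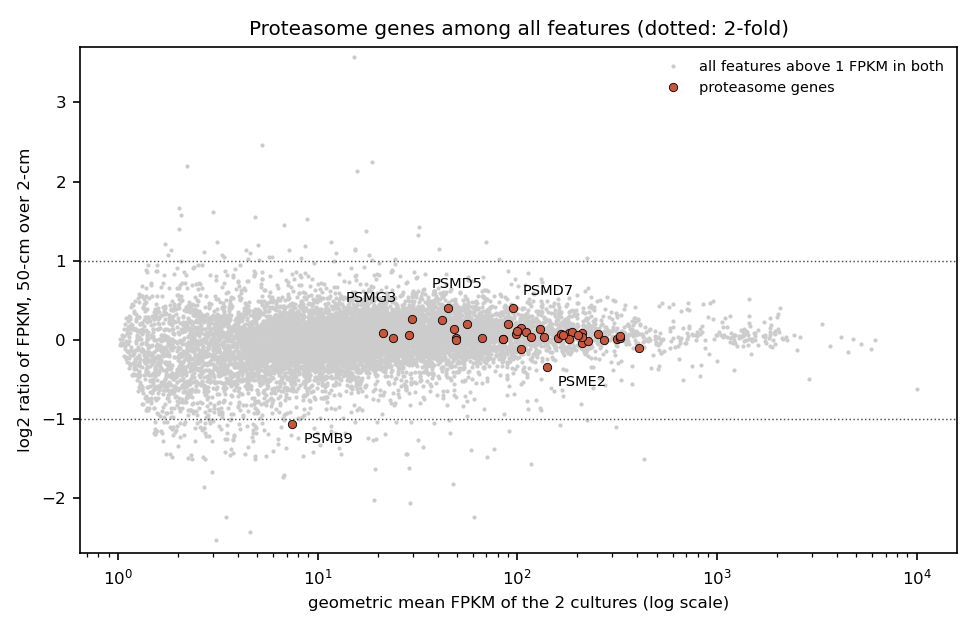
Log2 ratio of 50-cm over 2-cm FPKM against the geometric mean FPKM (log axis) for the 11057 features above 1 FPKM in both cultures (grey) and the 43 proteasome genes (red). The proteasome genes sit near 0 at high expression, apart from PSMB9 beyond the dotted 2-fold line at a log2 ratio of -1.07.

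The inducible beta subunits were far below their constitutive counterparts in both cultures, and only PSMB9 among them differed by more than 1.2-fold with enough expression to be compared. PSMB9 was at 10.7 FPKM at 2 cm and 5.12 FPKM at 50 cm (ratio 0.477, log2 ratio -1.07). Only 4 of its 500 neighbours in expression had a smaller ratio. Relative to PSMB6, the subunit it replaces, PSMB9 was at 3.32% at 2 cm and 1.54% at 50 cm. With a pseudocount of 1 FPKM its ratio was 0.521, so that it no longer passed 2-fold.

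PSMB10 was at 20.7 and 21.9 FPKM (ratio 1.06), which is 9.87% and 10.2% of PSMB7, its counterpart. PSMB9 and PSMB10 therefore differed in direction. PSMB8 was at 0.152 and 0.0837 FPKM, or 0.067% and 0.037% of PSMB5. Its ratio of 0.549 lay within 0.05% of the step given by 1 read at 50 cm against 2 at 2 cm, or multiples of these, and was not read as a difference. The same held for PSMB11 (0.209 and 0.344 FPKM), whose ratio lay at the step of 3 reads against 2. Summed over PSMB8, PSMB9 and PSMB10, the inducible subunits amounted to 4.15% of the summed FPKM of PSMB5, PSMB6 and PSMB7 at 2 cm and 3.50% at 50 cm.

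The activators split in direction. PSME2, the beta chain of the PA28 cap that is induced by interferon, was at 159 FPKM at 2 cm and 125 FPKM at 50 cm (ratio 0.789), and 24 of its 500 neighbours in expression had a smaller ratio. PSME1, the alpha chain of the same cap, was at 109 and 100 FPKM (ratio 0.92), so the FPKM of PSME2 was 145% of that of PSME1 in one culture and 125% in the other. PSME3, which forms the nuclear PA28 gamma cap, was at 84.2 and 96.3 FPKM (ratio 1.14). PSME4, which encodes the large activator PA200, was at 23.8 and 24.2 FPKM (ratio 1.02). PSMF1, the regulator PI31, was at 85.1 and 85.7 FPKM (ratio 1.01). Both chains of the interferon-linked cap were lower at 50 cm under each scaling used, and PSME3 was higher under each, whereas PSME4 and PSMF1 had ratios of 0.989 and 0.979 with upper quartile scaling.

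Genes of antigen processing were set beside the inducible subunits, in 1 list with regulators and ISG15 enzymes that are regulated with these subunits. Of 11 listed genes, 9 were above 1 FPKM in both cultures, and 8 of these were lower at 50 cm, with a median ratio of 0.851 against 1.01 over all features. UBA7, the E1 enzyme of the ubiquitin-like ISG15, was at 21.2 and 14.0 FPKM (ratio 0.66), the smallest of the list. UBE2L6, the E2 enzyme of ISG15, had a ratio of 0.813, the peptide transporter genes TAP1 and TAP2 ratios of 0.817 and 0.901, and the trimming peptidase gene ERAP1 a ratio of 0.821. IRF1, a transcription factor that acts on the inducible subunit genes, was at 35.5 and 30.2 FPKM (ratio 0.85). LAP3, at a ratio of 1.03, was the gene that was higher, and ERAP2 and NLRC5 were below 1 FPKM in both cultures. In this list 4 of 9 genes had a ratio under 1/1.2, with a background of 16.9%, and over all features 5236 of 11057 were lower by any amount. The number lower in the list was 8 of 9 with upper quartile scaling and 9 of 9 with quantile normalization. The list was chosen with earlier results of these data known, so its shares are descriptive and not independent support. Immune cell markers had low values or none. PTPRC, CD3E and LYZ were listed at 0 in both cultures, and CD14 was at 4.82 and 3.77 FPKM. Whether other cells had a part in the values of the inducible subunits was not tested.

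**Figure D4:**
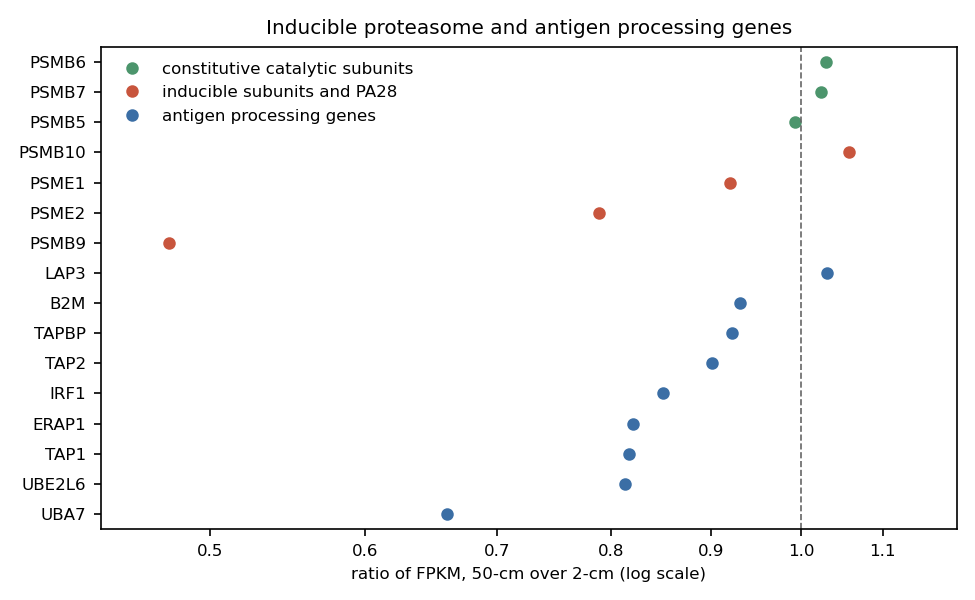
Ratio of 50-cm over 2-cm FPKM (log axis) for the constitutive catalytic subunits (green), the inducible subunits and PA28 chains above 1 FPKM (red), and 9 genes of the antigen processing list, which includes IRF1 and the ISG15 enzymes UBA7 and UBE2L6 (blue). The catalytic subunits lie near 1, whereas PSMB9, PSME2, PSME1 and all of the blue genes except LAP3 lie below it.

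Partners of the proteasome outside the PSM names had ratios on both sides of 1. Of 21 genes, 13 were higher and 8 lower at 50 cm, and the median ratio was 1.06. Over all features 52.6% were higher, 1.67% passed 2-fold either way, and the median ratio was 1.01. ADRM1, a ubiquitin receptor of the base, was at 148 and 158 FPKM (ratio 1.07), and SHFM1, the smallest lid subunit, at 788 and 787 FPKM. ZFAND2A, a stress-inducible protein that binds the cap, was the one gene of this list past 2-fold, at 12.4 FPKM at 2 cm and 26.2 FPKM at 50 cm (ratio 2.11). Its relative ZFAND5, an activator of the cap, had a ratio of 0.792, the smallest.

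NFE2L1 encodes the transcription factor that raises proteasome genes when the particle is inhibited, and it was at 34.2 and 30.3 FPKM (ratio 0.884). NFE2L2, which encodes its relative in the antioxidant response, was at 112 and 111 FPKM (ratio 0.986). The small MAF genes, whose products pair with both, were higher at 50 cm, at ratios of 1.43 for MAFF, 1.44 for MAFG and 1.37 for MAFK. Of the 12 genes in this list, 7 were higher and 5 lower, from FOXO4 (ratio 0.643, from 2.00 to 1.29 FPKM) to MAFG. The share higher over all features was 52.6%.

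Genes of ubiquitin itself were also measured. RPS27A, which encodes ubiquitin fused to a ribosomal protein, was at 2137 and 2146 FPKM (ratio 1.005), and UBB, a polyubiquitin gene, was at 89.5 and 96.4 FPKM (ratio 1.08). UBA1, the main E1 enzyme, was at 112 and 117 FPKM (ratio 1.05). VCP, the segregase that extracts proteins for degradation, was at 204 and 219 FPKM (ratio 1.07). In its list 11 of the 18 genes were higher, against 52.6% of all features, with a median ratio of 1.02. UBXN4 had the smallest ratio of that list (0.877) and UBXN2A the largest (1.25).

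Other many-subunit complexes gave a scale for these sizes. As a background for their counts, 52.6% of all features and 65.7% of those above 50 FPKM were higher at 50 cm. The CCT chaperonin, which folds actin and tubulin, had 8 of 8 genes higher at 50 cm under each scaling used, with a median ratio of 1.22 and a range of log2 ratios from 0.24 to 0.43, the latter in CCT6A. The initiation factor eIF3, whose subunits share domains with the 19S lid, had a median ratio of 1.12, with 12 of 13 genes higher and EIF3B the most (ratio 1.38). The COP9 signalosome, the closest relative of the lid, had a median ratio of 1.01, with 5 of 9 genes higher and COPS7A the most (ratio 1.35). The medians of the 20S core (1.01) and of the 19S cap (1.07) thus lay below those of the chaperonin and eIF3. No log2 ratio of the ATPases or the core reached the lowest one of the chaperonin. In the lid, however, those of PSMD7 (0.41) and PSMD12 (0.245) exceeded that of CCT3 (0.243), the lowest of the chaperonin. Over the 43 proteasome genes the log2 ratio had an SD of 0.213, compared with 0.333 over all features. Over the 42 above 20 FPKM, which leaves out PSMB9 alone, the SD was 0.125, compared with 0.240 over features at that level. Above 50 FPKM it was 0.117 for 33 proteasome genes and 0.223 for features. Without the inducible subunits and PA28 the SD was 0.106 (39 genes), a set with no matched background.

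**Figure D5:**
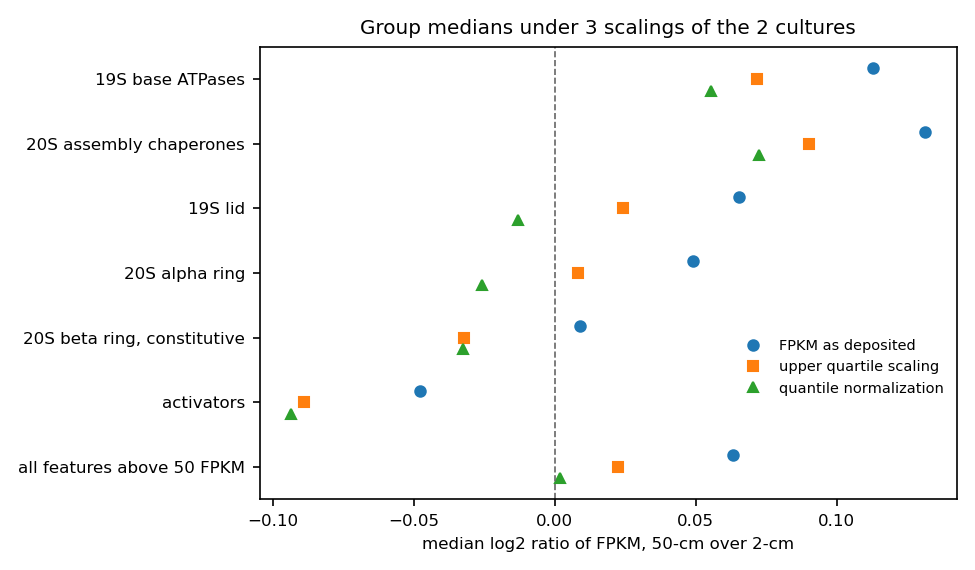
Median log2 ratio of 50-cm over 2-cm FPKM by part of the proteasome, and for all features above 50 FPKM, with the deposited FPKM values (circles), upper quartile scaling (squares) and quantile normalization (triangles). The medians plotted are smaller under the other scalings, so that the constitutive beta ring falls below 0 in both and the lid and the alpha ring in quantile normalization, whereas the base ATPases and core chaperones stay above 0 and the activators below it.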

How the data were processed

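RNA was analysed from 1 MDCK culture per medium height (2 and 50 cm). The authors made stranded mRNA libraries and mapped single-end reads to CanFam3.1, the dog assembly, using TopHat2 (version 2.0.13), Bowtie2 (version 2.2.3) and SAMtools (version 0.1.19). The deposited FPKM values came from Cuffnorm (version 2.2.1). Versions are those in the submitters' processing notes. The annotation and the library scaling are not given in the sources used here, nor how reads shared with processed pseudogenes were counted, which can affect proteasome genes. Read numbers are unknown, so no interval was computed.

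Ratios of 50-cm over 2-cm FPKM were taken with no pseudocount, and a feature had to exceed 1 FPKM in each culture. Limits of 2-fold and of 1.2-fold were used for counts. Member symbols were sorted into 10 groups by known role, and all 46 matched a RefSeq symbol in the table of assembly UU_Cfam_GSD_1.0. Genes named were, in each group, the highest, lowest and most extreme ratios, members past 1.2-fold and those at or below 1 FPKM, and in the other lists genes past 1.5-fold and the most extreme gene. A few more are named for their role, and some genes of the other lists are not reported here. Members and lists were chosen with earlier results of these data known. The 500 nearest features describe the spread across genes, not error. The script was tested on simulated data with planted changes past 2-fold, which did not test the 1.2-fold counts or the medians. Alternatives were other FPKM minima, a pseudocount, recentring, upper quartile scaling, quantile normalization and a wider symbol rule. Python 3.11.15, numpy 2.4.6, pandas 2.3.3, scipy 1.17.1 and matplotlib 3.10.9 were used.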

Additional observations from a re-analysis of the deposited data

How the results depend on the processing

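Of 105 values recomputed under 8 alternatives, or with the inducible beta subunits left out, 101 stayed within 0.1 on the log2 scale or, for counts, within 1.5 times the value reported. The limit of 0.1 exceeded several of the medians, so some changes of sign were counted as staying. With quantile normalization the median went from 0.06 to -0.01 for all members, from 0.05 to -0.03 for the alpha ring and from 0.07 to -0.01 for the lid. Minima of 5 FPKM in both cultures, or 1 FPKM in at least 1, kept the same 43 members, so their counts and medians could not move. The number of members higher at 50 cm was 23 with upper quartile scaling and 17 with quantile normalization, against 36 in the deposited values. With a pseudocount of 1 FPKM, 0 members passed 2-fold, because PSMB9 then had a ratio of 0.521. When any value above 0 FPKM was accepted, the median log2 ratio of the inducible or tissue-specific beta subunits was -0.39 in place of -0.49, since PSMB8 and PSMB11 entered with few reads. The deposited values carry no read counts, and 1 culture per group leaves every ratio without an error.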

Other observations

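The nearest gene on each side of the 5 members past 1.2-fold and above 1 FPKM in both cultures was looked up by gene order in the RefSeq table of another dog assembly, UU_Cfam_GSD_1.0, after the members' values had been seen. PSMB9 lies between TAP1, with which it is known to share a promoter region, and DLA-DMB, a gene of MHC class II peptide loading. TAP1 was at 10.5 FPKM at 2 cm and 8.60 FPKM at 50 cm (ratio 0.817), and DLA-DMB was at 5.20 and 2.60 FPKM (ratio 0.499), near the ratio of 0.477 of PSMB9. PSME2 lies between EMC9 (28.5 and 33.9 FPKM, ratio 1.19) and RNF31 (15.4 FPKM in both cultures), neither of which was lower by the size seen for PSME2. PSMD7 lies between ZFHX3 (ratio 0.93) and WWP2 (ratio 1.05). PSMD5 lies between FBXW2 (ratio 1.19) and LOC102153482 (ratio 1.07), and PSMG3 between ELFN1 (0.549 and 0.486 FPKM) and TMEM184A (1.15 and 0.594 FPKM), neither of which exceeded 1 FPKM in both cultures. Some genes at the second place also exceeded 1 FPKM in both cultures. These were DLA-DMA by PSMB9 (ratio 0.855), and PSME1 (ratio 0.92) and IRF9 (ratio 0.943) by PSME2. The others were NOB1 by PSMD7 (ratio 1.44), MEGF9 by PSMD5 (ratio 1.33) and MAFK by PSMG3 (ratio 1.37). PSMC3IP, left out of the members, was at 14.6 and 17.6 FPKM (ratio 1.204).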
